A study of Mus musculus with 12 samples.

Results

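The matrix metalloproteinases (Mmp), the Adamts proteases, the protease-like Adamtsl proteins and the tissue inhibitors of metalloproteinases (Timp) were examined in fibroblasts sorted from mouse lung. The members were all genes of the array's annotation whose symbol is Mmp, Adamts or Adamtsl followed by a number, or Timp1 to Timp4. They came to 40 of 17097 genes, made up of 18 Mmp, 14 Adamts, 5 Adamtsl and 3 Timp genes, and 28 of the 40 were bright enough to be tested. The mice had a GFP reporter in place for Pdgfra, the gene of PDGF receptor alpha, and a bright and a dim GFP gate were sorted from lungs digested with dispase, 5 days after surgery. In the PNX-dnFGFR groups the animals expressed a dominant-negative form of FGF receptor 2 and had a partial pneumonectomy, in which part of the lung is removed and the rest regrows. In the PNX groups the animals had the pneumonectomy, and in the SHAM groups a sham operation, both with no such receptor named in the labels. Each of the 6 groups (bright PNX-dnFGFR, bright PNX, bright SHAM, dim PNX-dnFGFR, dim PNX and dim SHAM) had 2 arrays. RNA of 2000 sorted cells was amplified over 25 cycles for each array. The age, strain and sex of the animals, the promoter that drives the dominant-negative receptor and the cells that carry it are not stated in the labels, nor is whether an array stands for 1 animal or a pool.

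Metalloproteinases are zinc enzymes that cut proteins of the extracellular matrix and of the cell surface. Mmp proteins are made as inactive precursors, most are secreted and some stay anchored in the cell membrane. Adamts proteases carry thrombospondin repeats that hold them in the matrix, where they trim versican, aggrecan and procollagens, while Adamtsl proteins share these repeats, lack the catalytic domain and bind fibrillin microfibrils. Timp proteins bind the active site of the enzymes and block it, and in the lung the balance between enzymes and inhibitors takes part in the remodelling of alveolar walls.

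A run of 10 neighbouring genes on chromosome 9 (RefSeq, GRCm38.p6) holds 9 members: Mmp13, Mmp12, Mmp1b, Mmp3, Mmp1a, Mmp10, Mmp8, Mmp20 and Mmp7. Only Mmp3 of these 9 was bright enough to be tested. The 100 bases before the gene's start were read from RefSeq for the 26 members that the promoter table holds. Some had more than 1 start, and all windows were searched for 3 motifs. TGANTCA is the form bound by AP-1 proteins, and its reverse complement has the same form. TATAAA, the TATA box, and GGGCGG, the GC box, were searched on either strand. The windows of 8 members held TGANTCA, all 8 from the chromosome 9 run, while 2.73% of 32851 windows of all genes held it. TATAAA stood in 9 members, always on the gene's strand, and in 5.56% of all windows on either strand. GGGCGG stood in 14 members and in 24.7% of all windows. Of the 16 tested members with a window, 12 held GGGCGG, 3 held TATAAA and 1, Mmp3, held TGANTCA. The windows of 5 members of the run, which is mostly below the filter, and of 3 tested members outside it are shown as examples. They were picked for their motifs, and other windows differ. Mmp8 of the run held none of the 3 motifs, and neither Mmp12 window held TATAAA. Outside the run, the tested Adamts1 and Adamtsl2 held TATAAA, and the tested Adamts12, Adamtsl5 and Mmp23 held no motif. Adamts18 and Adamts20, below the filter, held GGGCGG. Each window shown runs from 5′ to 3′ on the gene's strand and ends at the base before the start, and capitals mark the motifs.
Mmp3: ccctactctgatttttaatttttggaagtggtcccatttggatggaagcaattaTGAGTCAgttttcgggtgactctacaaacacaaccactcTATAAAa
Mmp10: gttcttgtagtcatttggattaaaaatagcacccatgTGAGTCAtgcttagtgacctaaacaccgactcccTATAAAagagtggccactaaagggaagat
Mmp1a: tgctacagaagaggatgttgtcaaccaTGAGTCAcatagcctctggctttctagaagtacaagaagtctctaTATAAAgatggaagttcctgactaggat
Mmp13: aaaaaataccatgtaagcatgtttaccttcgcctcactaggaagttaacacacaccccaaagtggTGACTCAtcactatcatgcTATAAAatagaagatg
Mmp7: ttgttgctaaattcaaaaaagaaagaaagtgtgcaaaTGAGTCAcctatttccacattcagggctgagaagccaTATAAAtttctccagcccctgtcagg
Mmp11: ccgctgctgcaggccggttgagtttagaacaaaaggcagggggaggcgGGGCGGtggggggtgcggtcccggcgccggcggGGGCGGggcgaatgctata
Mmp14: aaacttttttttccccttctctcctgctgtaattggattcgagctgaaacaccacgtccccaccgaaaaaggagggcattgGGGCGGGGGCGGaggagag
Timp1: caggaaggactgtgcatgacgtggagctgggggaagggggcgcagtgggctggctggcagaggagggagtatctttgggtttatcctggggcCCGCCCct
The windows lie at chr9:7445722-7445821, plus strand for Mmp3, at chr9:7502242-7502341, plus strand for Mmp10, at chr9:7464041-7464140, plus strand for Mmp1a, at chr9:7272414-7272513, plus strand for Mmp13 and at chr9:7691990-7692089, plus strand for Mmp7. Those outside the run lie at chr10:75932503-75932602, minus strand for Mmp11, at chr14:54431498-54431597, plus strand for Mmp14 and at chrX:20870066-20870165, plus strand for Timp1. In the 5 windows of the run TGANTCA begins at positions -73 to -35 and TATAAA at positions -29 to -7, counted back from -1, the base before the start. A motif match describes the letters of these windows and does not show that a factor binds there.

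The deposited values are log2 signals, used as they are, and all fold changes are log2 differences. Signals of different probe sets are not on a common scale, so levels are compared between arrays and not between genes. A gene was tested if at least 2 arrays held it above a filter of log2 5.101, the median signal of the whole table. Of the 28 tested members 20 exceeded it on all 12 arrays, and the chosen probe sets of 2, Adamtsl1 and Adamtsl3, on bright arrays only. All adjusted p-values are from limma, with Benjamini and Hochberg's adjustment over 11073 genes, and a member passed at an adjusted p below 0.05. The labels call the replicates biological. Each p-value sets a difference against a spread pooled over the 6 groups of 2 arrays, which need not be a spread between animals. Replicates of a group correlated at 0.979 to 0.989 (Pearson's r across genes), and bright with dim arrays at 0.915 to 0.958. The summed signal of 5 fibroblast markers was 13.81 to 13.97 on bright and 13.04 to 13.24 on dim arrays. Pdgfra itself went against the gate's name, with 5.54 and 5.29 in bright PNX-dnFGFR, 4.84 and 5.08 in bright PNX and 5.11 and 5.25 in bright SHAM cells, against 6.92 and 6.99 in dim PNX-dnFGFR, 6.66 and 6.97 in dim PNX and 7.13 and 6.93 in dim SHAM cells, so bright and dim are used as the labels of the gates only. The summed signal of 6 alveolar fibroblast markers was 9.85 to 11.61 on bright and 13.64 to 13.79 on dim arrays, that of 6 adventitial markers 12.14 to 12.81 on bright and 10.59 to 11.07 on dim arrays, and that of 4 pericyte markers 9.65 to 10.01 on bright and 6.81 to 7.32 on dim arrays. Of 6 mesothelial markers it was 10.42 to 11.65 on bright and 8.32 to 9.54 on dim arrays, and of 5 smooth muscle markers 8.90 to 10.40 on bright and 8.21 to 8.75 on dim arrays. Not every marker ran with its sum. Of the pericyte markers, Rgs5 was below the filter on all 12 arrays. Notch3 had 5.44 to 6.16 on bright and 5.08 to 5.87 on dim arrays. Of the smooth muscle markers, Des ran the other way, at 5.29 to 6.65 on bright and 6.41 to 7.05 on dim arrays. Cnn1 and Actg2 lay near or below the filter. The sums of macrophage, neutrophil, epithelial and endothelial markers overlapped between the gates. On bright arrays they were 10.92 to 11.33, 7.48 to 8.74, 12.05 to 13.32 and 8.42 to 9.25, in that order. On dim arrays they were 10.90 to 12.07, 6.98 to 10.90, 12.44 to 13.51 and 8.13 to 9.15. The epithelial gene Sftpc had 11.36 to 12.43 over all 12 arrays. The part of RNA from cells other than fibroblasts was not tested. In such pooled cells, fewer cells of a type and less RNA per cell cannot be told apart.

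The first question was how bright and dim cells differ in these genes. As the mean over the 3 conditions, 14 of the 28 tested members were higher and 7 were lower in bright than in dim cells, with 6 arrays per subset. That is 75% of the tested members, where 47.8% of all tested genes passed, 28.5% higher and 19.3% lower. The median difference was 0.24 log2 over the tested members and 0.05 over all tested genes. Members that entered the test through bright arrays only had to differ, so these counts describe the list and carry no test of it. By family, 5 of 9 Mmp genes were higher and 1 lower, 4 of 11 Adamts genes were higher and 4 lower, 2 of 5 Adamtsl genes were higher and 2 lower, and 3 of 3 Timp genes were higher. The arrays of bright and dim cells lay apart in each condition for 18 of the 21 members that passed, and overlapped in at least 1 condition for Timp2, Timp3 and Adamts9. Of all tested genes 33.1% passed and lay apart in this way, which is 69.2% of those that passed, against 85.7% of the members that passed.

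**Figure D1:**
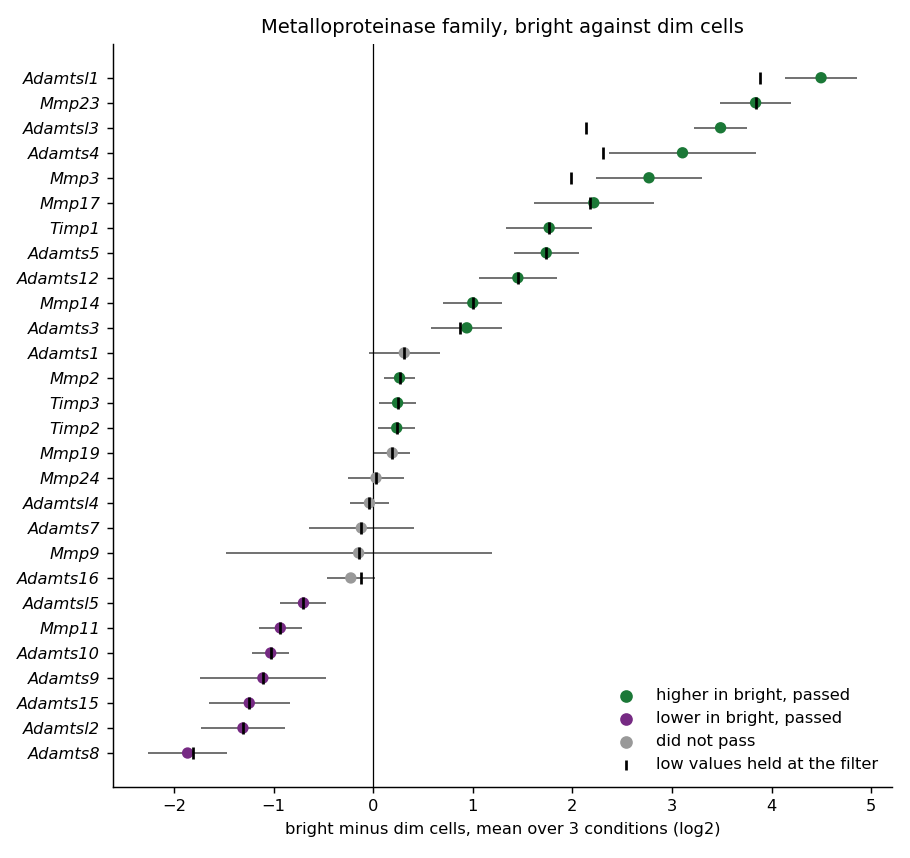
Difference between bright and dim cells for the 28 tested members, as the mean over 3 conditions, in log2 units with 95% confidence intervals; the black ticks give the difference with values below the filter set to the filter. Adamtsl1, Mmp23, Adamtsl3 and Adamts4 lie above 3 log2, and Adamts8 lies lowest at -1.86.

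Among the stromelysins, which cut a broad range of matrix proteins and activate other Mmp precursors, Mmp3 was higher in bright cells. Its signal was 6.71 and 6.59 in bright PNX-dnFGFR, 6.85 and 7.51 in bright PNX and 7.80 and 7.61 in bright SHAM cells, against 5.63 and 4.32 in dim PNX-dnFGFR, 4.18 and 4.08 in dim PNX and 3.72 and 4.51 in dim SHAM cells. All bright arrays lay above all dim arrays, and of the dim arrays only PNX-dnFGFR replicate 1 exceeded the filter. The difference was 2.77 log2 (± 0.24 SE, adjusted p = 1.4e-05), and 1.99 with values below the filter set to it. Mmp11, a stromelysin-related enzyme that furin activates inside the cell, ran the other way. It had 8.62 and 8.60 in bright PNX-dnFGFR, 8.71 and 9.09 in bright PNX and 9.68 and 9.96 in bright SHAM cells, against 10.24 and 10.11 in dim PNX-dnFGFR, 9.51 and 9.70 in dim PNX and 10.34 and 10.36 in dim SHAM cells. Within each condition all dim arrays lay above the bright ones, and the mean difference was -0.93 log2 (± 0.10 SE, adjusted p = 4.7e-05).

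The gelatinase Mmp2, which digests denatured collagen and basement membrane, differed little. It had 10.87 and 10.82 in bright PNX-dnFGFR, 11.21 and 11.18 in bright PNX and 11.27 and 11.26 in bright SHAM cells, against 10.80 and 10.72 in dim PNX-dnFGFR, 10.92 and 10.96 in dim PNX and 10.76 and 10.84 in dim SHAM cells. The bright arrays lay above the dim arrays of the same condition by a mean of 0.27 log2 (± 0.07 SE, adjusted p = 0.01), a 1.20-fold difference. The other gelatinase, Mmp9, did not pass (difference -0.15, 95% interval -1.48 to 1.19, adjusted p = 0.86), and its arrays are taken up further on.

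Of the membrane-bound enzymes, Mmp14 and Mmp17 were higher in bright cells. Mmp14 activates the Mmp2 precursor at the cell surface and cuts fibrillar collagen. Its signal was 9.42 and 9.45 in bright PNX-dnFGFR, 9.83 and 9.09 in bright PNX and 9.70 and 9.78 in bright SHAM cells, against 8.82 and 8.60 in dim PNX-dnFGFR, 8.21 and 8.31 in dim PNX and 8.50 and 8.85 in dim SHAM cells, a difference of 1.0 log2 (± 0.13 SE, adjusted p = 2.2e-04), and a second probe set gave 1.13. Mmp17, which is held in the membrane by a lipid anchor, had 7.82 and 7.92 in bright PNX-dnFGFR, 7.92 and 8.51 in bright PNX and 7.37 and 7.26 in bright SHAM cells, against 5.29 and 5.61 in dim PNX-dnFGFR, 5.91 and 4.87 in dim PNX and 6.65 and 5.17 in dim SHAM cells. It differed by 2.22 log2 (± 0.27 SE, adjusted p = 1.3e-04), and its dim replicates were the more scattered, with the dim SHAM pair 1.48 apart. For Mmp24, another membrane-type enzyme, the difference was 0.03 (95% interval -0.25 to 0.31, adjusted p = 0.87).

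Mmp23, an unusual membrane-tethered enzyme that is shed on cleavage of its own propeptide, showed the largest difference among the members above the filter on every array. It had 10.23 and 10.37 in bright PNX-dnFGFR, 10.37 and 10.20 in bright PNX and 9.91 and 9.70 in bright SHAM cells, against 5.73 and 6.16 in dim PNX-dnFGFR, 6.92 and 6.03 in dim PNX and 6.60 and 6.29 in dim SHAM cells. The lowest bright array was 2.78 log2 above the highest dim array. The mean difference was 3.84 log2 (± 0.16 SE, adjusted p = 2.1e-07), and a second probe set gave 4.19. Mmp19, which cuts basement membrane proteins, had 10.52 and 10.58 in bright PNX-dnFGFR, 10.37 and 10.24 in bright PNX and 10.16 and 10.05 in bright SHAM cells, against 10.12 and 10.17 in dim PNX-dnFGFR, 10.21 and 10.16 in dim PNX and 10.19 and 9.91 in dim SHAM cells. Its mean difference of 0.19 did not pass (adjusted p = 0.073), though in PNX-dnFGFR cells alone it passed in the fit of all arrays and in only 2 of the 12 fits that leave out 1 array.

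**Figure D2:**
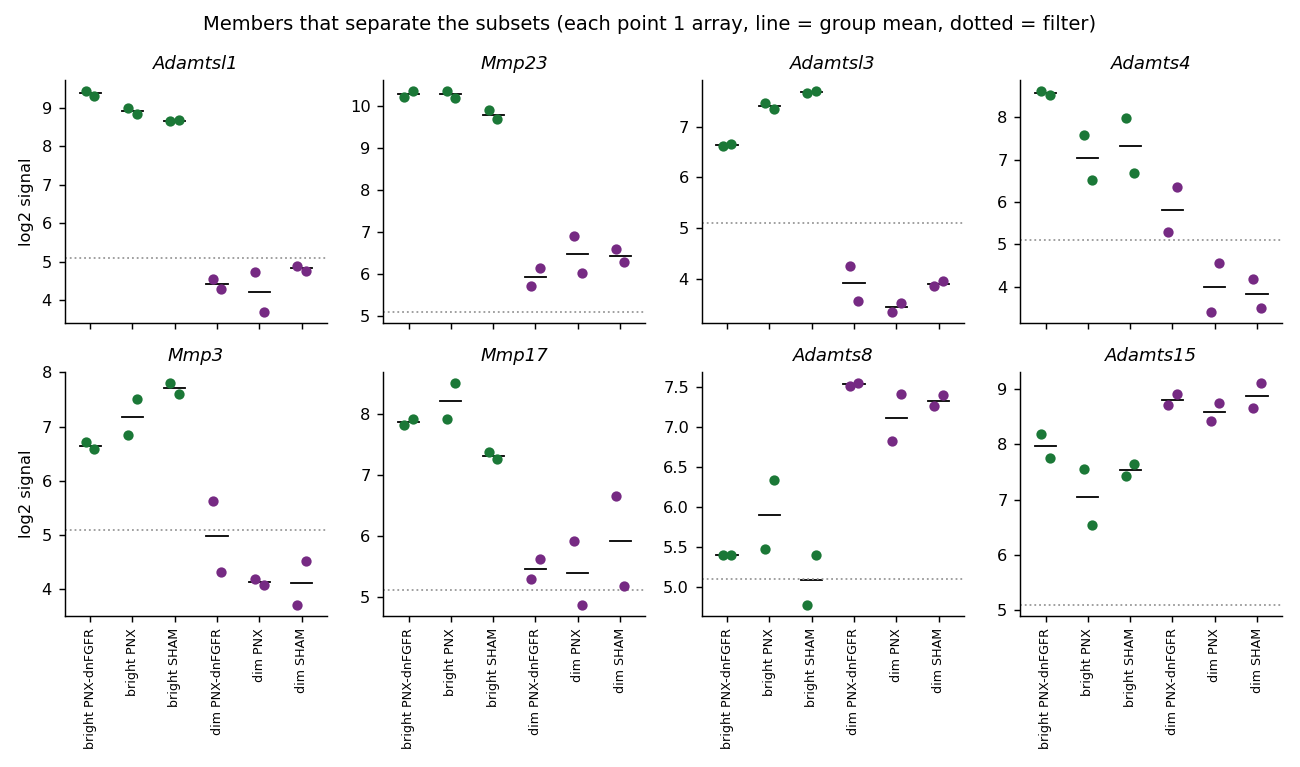
Log2 signal of 8 members on each array of the 6 groups, with a line at each group's mean and the filter as a dotted line. Adamtsl1, Mmp23, Adamtsl3, Adamts4, Mmp3 and Mmp17 are higher on all bright arrays, and Adamts8 and Adamts15 are higher on all dim arrays.

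The Adamts proteases that cut versican and aggrecan divided between the gates. Adamts4, an aggrecanase, had 8.63 and 8.53 in bright PNX-dnFGFR, 7.58 and 6.52 in bright PNX and 7.98 and 6.69 in bright SHAM cells, against 5.29 and 6.35 in dim PNX-dnFGFR, 3.40 and 4.57 in dim PNX and 4.18 and 3.49 in dim SHAM cells. Bright arrays were all above dim arrays, with a difference of 3.11 log2 (± 0.33 SE, adjusted p = 5.8e-05) that was 2.31 with low values set to the filter. Adamts5, the other main aggrecanase, had 9.46 and 9.31 in bright PNX-dnFGFR, 9.24 and 9.57 in bright PNX and 9.59 and 9.42 in bright SHAM cells, against 7.04 and 7.80 in dim PNX-dnFGFR, 7.69 and 8.04 in dim PNX and 7.65 and 7.96 in dim SHAM cells, a difference of 1.74 log2 (± 0.15 SE, adjusted p = 1.3e-05). Of its 4 probe sets 3 gave 1.74 to 1.80, and the fourth, below the filter on all arrays, gave 0.17. Its neighbour on chromosome 16, Adamts1, a versican-cutting enzyme, gave 0.31 (95% interval -0.04 to 0.67, adjusted p = 0.13).

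Adamts8, Adamts15 and Adamts9 were lower in bright cells. Adamts8, known as an inhibitor of vessel growth, had 5.40 and 5.40 in bright PNX-dnFGFR, 5.48 and 6.34 in bright PNX and 4.78 and 5.41 in bright SHAM cells, against 7.52 and 7.55 in dim PNX-dnFGFR, 6.83 and 7.41 in dim PNX and 7.26 and 7.41 in dim SHAM cells. The difference was -1.86 log2 (± 0.18 SE, adjusted p = 2.8e-05). Adamts15, its neighbour on chromosome 9 and a versican-cutting enzyme, had 8.18 and 7.75 in bright PNX-dnFGFR, 7.55 and 6.55 in bright PNX and 7.42 and 7.65 in bright SHAM cells, against 8.71 and 8.91 in dim PNX-dnFGFR, 8.42 and 8.76 in dim PNX and 8.65 and 9.11 in dim SHAM cells, a difference of -1.24 log2 (± 0.18 SE, adjusted p = 4.2e-04). Both neighbours were thus higher on every dim array than on every bright array. Adamts9, a large versican-cutting protease, had 9.63 and 9.39 in bright PNX-dnFGFR, 9.01 and 7.67 in bright PNX and 7.47 and 6.59 in bright SHAM cells, against 9.76 and 9.52 in dim PNX-dnFGFR, 9.82 and 9.65 in dim PNX and 9.44 and 8.22 in dim SHAM cells. Its bright and dim arrays overlapped in PNX-dnFGFR cells, and the mean difference was -1.11 log2 (± 0.28 SE, adjusted p = 0.0099). The other 2 probe sets of Adamts9 gave -0.95 and -0.26.

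Adamts3, which removes the amino-terminal propeptide of procollagens, was higher in bright cells. It had 6.80 and 6.40 in bright PNX-dnFGFR, 6.38 and 6.20 in bright PNX and 6.24 and 5.65 in bright SHAM cells, against 5.72 and 5.50 in dim PNX-dnFGFR, 5.29 and 5.43 in dim PNX and 5.41 and 4.68 in dim SHAM cells, a difference of 0.94 log2 (± 0.16 SE, adjusted p = 0.001). A second probe set of Adamts3, below the filter on all arrays, gave 0.02. Of the enzymes that cut cartilage oligomeric matrix protein, Adamts12 had 7.33 and 6.96 in bright PNX-dnFGFR, 7.48 and 6.70 in bright PNX and 7.77 and 7.08 in bright SHAM cells, against 6.07 and 5.84 in dim PNX-dnFGFR, 5.61 and 6.02 in dim PNX and 5.45 and 5.60 in dim SHAM cells. Bright arrays were higher in every condition, with a difference of 1.45 log2 (± 0.17 SE, adjusted p = 1.2e-04), though a second probe set below the filter gave 0.19. For Adamts7, the other such enzyme, the difference was -0.12 (95% interval -0.65 to 0.41, adjusted p = 0.70). Adamts10, which binds fibrillin and is mutated in a human connective tissue disorder with short stature, was lower in bright cells. It had 8.86 and 8.63 in bright PNX-dnFGFR, 9.55 and 9.74 in bright PNX and 9.58 and 9.59 in bright SHAM cells, against 10.31 and 10.26 in dim PNX-dnFGFR, 10.34 and 10.36 in dim PNX and 10.33 and 10.54 in dim SHAM cells, a difference of -1.03 log2 (± 0.08 SE, adjusted p = 8.9e-06), and a second probe set gave -0.96. Adamts16 lay near the filter on all arrays and gave -0.22 (adjusted p = 0.11).

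Among the Adamtsl proteins, the probe sets that stand for Adamtsl1 and Adamtsl3 exceeded the filter on bright arrays only. A difference between the gates was thus built into their selection, and their p-values for it only describe its size against the spread. Adamtsl1, a secreted matrix protein also called punctin, had 9.44 and 9.31 in bright PNX-dnFGFR, 8.99 and 8.85 in bright PNX and 8.66 and 8.67 in bright SHAM cells, against 4.55 and 4.30 in dim PNX-dnFGFR, 4.73 and 3.69 in dim PNX and 4.89 and 4.76 in dim SHAM cells. Its difference was 4.50 log2 (± 0.16 SE, adjusted p = 1.0e-07), and 3.89 with the dim values set to the filter. Its other probe sets gave 2.35 and 2.81, and the first of these exceeded the filter on 10 of 12 arrays, dim ones included. Adamtsl3, a close relative, had 6.62 and 6.65 in bright PNX-dnFGFR, 7.46 and 7.34 in bright PNX and 7.66 and 7.71 in bright SHAM cells, against 4.26 and 3.56 in dim PNX-dnFGFR, 3.34 and 3.53 in dim PNX and 3.87 and 3.95 in dim SHAM cells, a difference of 3.49 log2 (± 0.12 SE, adjusted p = 8.6e-08) that was 2.14 with the dim values set to the filter.

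The fibrillin-binding Adamtsl2 and Adamtsl5 went the other way. Adamtsl2, mutated in a human disorder of skin, joint and heart valve matrix, had 7.57 and 7.0 in bright PNX-dnFGFR, 7.93 and 9.01 in bright PNX and 7.69 and 7.90 in bright SHAM cells, against 9.19 and 9.22 in dim PNX-dnFGFR, 9.21 and 9.59 in dim PNX and 8.96 and 8.78 in dim SHAM cells. It was lower in bright cells, with a mean difference of -1.31 log2 (± 0.19 SE, adjusted p = 3.7e-04), with the bright PNX pair 1.08 apart. Adamtsl5 had 7.06 and 7.49 in bright PNX-dnFGFR, 7.58 and 7.76 in bright PNX and 7.94 and 8.18 in bright SHAM cells, against 8.30 and 8.50 in dim PNX-dnFGFR, 8.09 and 8.25 in dim PNX and 8.48 and 8.59 in dim SHAM cells, a difference of -0.70 log2 (± 0.10 SE, adjusted p = 4.4e-04). Adamtsl4 gave -0.04 (95% interval -0.24 to 0.16, adjusted p = 0.75).

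Timp1, a secreted inhibitor that is induced by cytokines and injury in many tissues, was higher in bright cells. Its signal was 10.77 and 10.32 in bright PNX-dnFGFR, 9.77 and 10.02 in bright PNX and 9.14 and 8.88 in bright SHAM cells, against 9.49 and 8.84 in dim PNX-dnFGFR, 7.75 and 8.59 in dim PNX and 7.12 and 6.50 in dim SHAM cells. Bright arrays exceeded the dim arrays of the same condition, by a mean of 1.77 log2 (± 0.19 SE, adjusted p = 7.0e-05). Timp2, which also links Mmp14 to the Mmp2 precursor, had 11.55 and 11.76 in bright PNX-dnFGFR, 11.87 and 11.77 in bright PNX and 12.04 and 12.04 in bright SHAM cells, against 11.41 and 11.68 in dim PNX-dnFGFR, 11.52 and 11.47 in dim PNX and 11.70 and 11.83 in dim SHAM cells. Timp3, which is bound to the matrix and also inhibits Adam17 and the aggrecanases, had 11.17 and 11.49 in bright PNX-dnFGFR, 11.61 and 11.68 in bright PNX and 11.87 and 11.85 in bright SHAM cells, against 11.06 and 11.19 in dim PNX-dnFGFR, 11.43 and 11.28 in dim PNX and 11.59 and 11.64 in dim SHAM cells. Bright minus dim was 0.04 to 0.41 on other probe sets of Timp2 and 0.32 to 0.55 on those of Timp3. The values tested are those of the chosen probe sets. Their differences were small, 0.24 log2 (± 0.08 SE, adjusted p = 0.041) for Timp2 and 0.25 log2 (± 0.08 SE, adjusted p = 0.035) for Timp3, and with 1 array left out they passed in 4 and 3 of 12 fits, with adjusted p-values up to 0.11 and 0.099. For Timp2 the passing fits were those without replicate 1 of bright PNX-dnFGFR or replicate 2 of bright PNX, of dim PNX-dnFGFR or of dim SHAM, and for Timp3 those without bright PNX-dnFGFR replicate 1, dim PNX-dnFGFR replicate 2 or dim PNX replicate 1.

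Taken by condition, 12 members were higher and 5 lower in bright than in dim PNX-dnFGFR cells, where 34.4% of all genes passed (21% higher, 13.5% lower). In PNX cells 11 were higher and 4 lower, where 18.4% of all genes passed (11.4% higher, 7.07% lower). In SHAM cells 11 were higher and 5 lower, where 19% of all genes passed (11.5% higher, 7.53% lower). Higher in all 3 conditions were 10 members (Adamtsl1, Mmp23, Adamtsl3, Adamts4, Mmp3, Timp1, Adamts5, Adamts12, Mmp14 and Adamts3), and lower in all 3 were Adamts8 and Adamts10, where the shares over all tested genes were 7.4% higher and 4.94% lower. Adamtsl1 and Adamtsl3 entered the test through bright arrays only and had to differ, so neither their calls nor the stability of these calls is a test. Of these 12 members 5 (Adamtsl1, Adamtsl3, Mmp23, Adamts4 and Adamts5) kept all 3 calls in every setting and with each array left out. Mmp3 and Timp1 lost the call in PNX-dnFGFR cells without bright PNX-dnFGFR replicate 1 or dim PNX-dnFGFR replicate 2 (adjusted p up to 0.085), and Adamts8 and Adamts10 in PNX cells without bright PNX replicate 1 or dim PNX replicate 2 (up to 0.15). Adamts3, Adamts12 and Mmp14 lost calls in several settings, with an adjusted p of up to 0.27 for Adamts3 in SHAM cells without bright SHAM replicate 1. The count in PNX-dnFGFR cells was 11 without bright PNX-dnFGFR replicate 1 and 11 without dim PNX-dnFGFR replicate 2, against 17 with all arrays.

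The 12 members below the filter were Adamts6, Adamts18, Adamts20, Mmp1a, Mmp1b, Mmp7, Mmp8, Mmp10, Mmp12, Mmp13, Mmp16 and Mmp20, with values from 1.79 to 5.25. They include the 4 collagenases on the array, Mmp1a, Mmp1b, Mmp8 and Mmp13. The highest value belonged to Mmp12, the macrophage elastase, at 5.25 on the array of dim PNX replicate 1, while its other 11 arrays lay between 2.40 and 3.41. The summed signal of 9 macrophage markers was 11.83 on that array and 10.90 on dim PNX replicate 2, and dim SHAM replicate 1 had 12.07 with Mmp12 at 2.41. The part of macrophage RNA in the Mmp12 value was not tested. Timp4 and 11 other family members had no named probe set and were not analysed here.

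The next question was what pneumonectomy changed 5 days after surgery, from PNX against SHAM cells. In bright cells 0 members passed, where 0.00903% of all genes passed (0.00903% higher, 0% lower). At an unadjusted p below 0.05 were 4 of 28 members and 912 of 11073 genes. In dim cells 0 members passed, where 0.0452% of all genes passed (0.0271% higher, 0.0181% lower). The unadjusted p was below 0.05 for 4 of 28 members and 1346 of 11073 genes. As the mean over both subsets 1 member passed, Mmp11, where 0.144% of all genes did (0.0722% higher, 0.0722% lower). Mmp11 was lower in PNX cells, with 8.71 and 9.09 in bright PNX against 9.68 and 9.96 in bright SHAM cells, and 9.51 and 9.70 in dim PNX against 10.34 and 10.36 in dim SHAM cells. The arrays lay apart in both subsets, and the mean difference was -0.83 log2 (± 0.12 SE, adjusted p = 0.037). The share of all genes whose arrays lay apart between conditions was not counted. Arrays apart therefore only describe a member, here and in the comparisons below. With 1 array left out at a time it was -0.93 to -0.74 and passed only without replicate 2 of bright PNX or either dim PNX-dnFGFR array, with an adjusted p of up to 0.19 in the 9 other fits.

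Of the members that did not pass, the smallest unadjusted p-values in bright cells belonged to Mmp11 at -0.92 (adjusted p = 0.3), Adamts9 at 1.31 (adjusted p = 0.53) and Adamts8 at 0.81 (adjusted p = 0.54). In dim cells Adamts1 had 7.32 and 7.47 in PNX against 5.53 and 6.15 in SHAM cells, a difference of 1.56 log2 (± 0.27 SE, adjusted p = 0.11). Its arrays lay apart, though the test over all genes was not passed. Mmp11 gave -0.75 (adjusted p = 0.15) and Timp1 1.36 (adjusted p = 0.18) in dim cells.

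**Figure D3:**
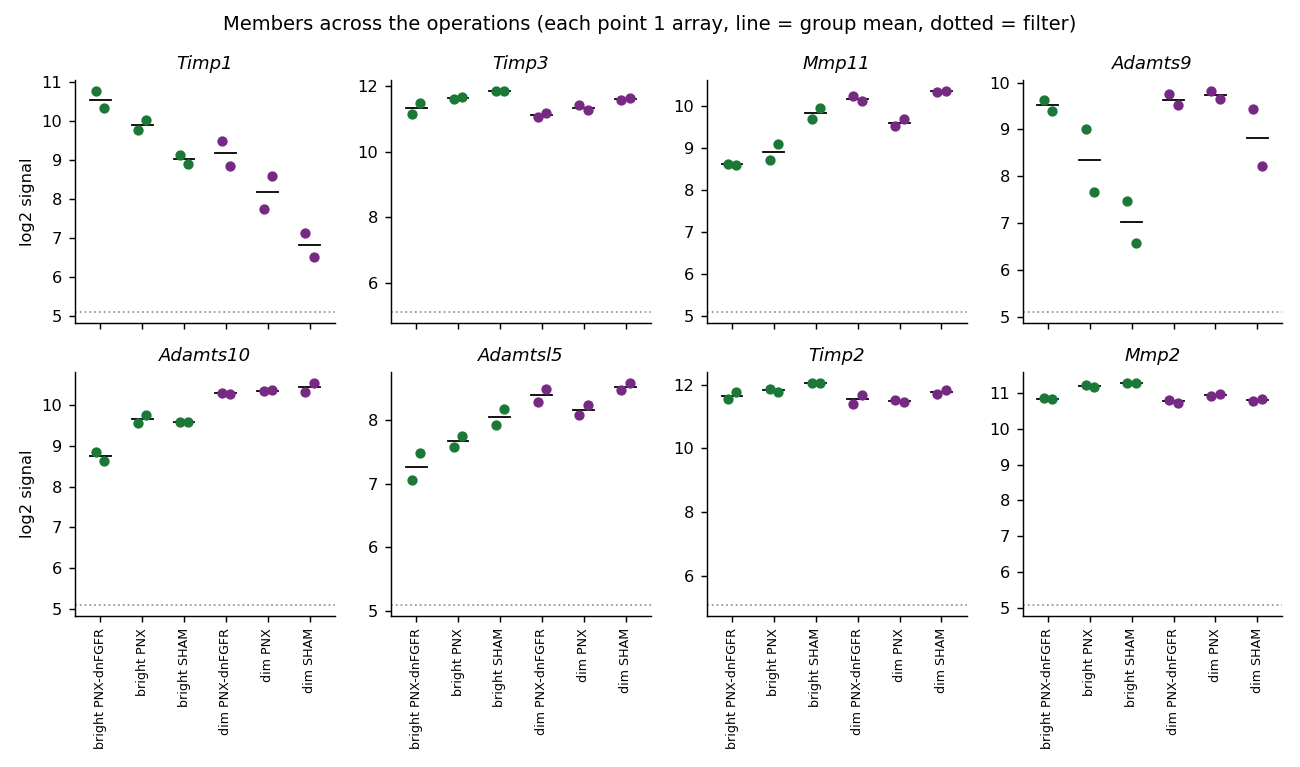
Log2 signal of 8 members on each array of the 6 groups, with a line at each group's mean. Timp1 is highest on the PNX-dnFGFR arrays and lowest on the SHAM arrays in both gates, and Timp3 lies lower on the PNX-dnFGFR than on the SHAM arrays in both.

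Pneumonectomy with the dominant-negative FGF receptor was set against the sham operation, a comparison that shares its SHAM arrays with the one above. In bright cells 2 members were higher and 4 lower in PNX-dnFGFR than in SHAM, and 5.2% of all genes passed (2.6% higher, 2.6% lower). An unadjusted p below 0.05 was found for 15 of 28 members and 2527 of 11073 genes. Adamts9 had 9.63 and 9.39 in PNX-dnFGFR against 7.47 and 6.59 in SHAM cells, a difference of 2.48 log2 (± 0.49 SE, adjusted p = 0.027). Timp1 had 10.77 and 10.32 in PNX-dnFGFR against 9.14 and 8.88 in SHAM cells, a difference of 1.53 log2 (± 0.33 SE, adjusted p = 0.037). For both genes the PNX arrays lay between, with 9.01 and 7.67 for Adamts9 and 9.77 and 10.02 for Timp1.

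Mmp11 had 8.62 and 8.60 in bright PNX-dnFGFR against 9.68 and 9.96 in bright SHAM cells, a difference of -1.21 log2 (± 0.17 SE, adjusted p = 0.011). Adamts10 had 8.86 and 8.63 in PNX-dnFGFR against 9.58 and 9.59 in SHAM cells, a difference of -0.84 log2 (± 0.14 SE, adjusted p = 0.017). These arrays did not overlap, and the 2 bright PNX arrays of Adamts10, at 9.55 and 9.74, lay with the SHAM arrays. Adamtsl3 had 6.62 and 6.65 in bright PNX-dnFGFR against 7.66 and 7.71 in bright SHAM cells, a difference of -1.04 log2 (± 0.20 SE, adjusted p = 0.026). Adamtsl5 had 7.06 and 7.49 in PNX-dnFGFR against 7.94 and 8.18 in SHAM cells, a difference of -0.78 log2 (± 0.18 SE, adjusted p = 0.041). Of the 4 lower members, Mmp11, Adamts10 and Adamtsl5 were also lower in bright than in dim cells, and Adamtsl3 was higher in bright cells. The count of 6 rests on the 4 arrays compared: it was 2 without bright PNX-dnFGFR replicate 1, 0 without bright PNX-dnFGFR replicate 2, 1 without bright SHAM replicate 1 and 0 without bright SHAM replicate 2. Without any 1 array, Mmp11 passed in 10 of 12 fits, Adamts10 in 9, Adamts9, Timp1 and Adamtsl3 in 8 each and Adamtsl5 in 2.

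Some marker sums differed between these groups and others hardly did. In bright PNX-dnFGFR against bright SHAM cells fibroblast markers had 13.92 to 13.97 and 13.84 to 13.88. Pericyte markers had 9.82 to 9.88 and 9.77 to 9.98, and macrophage markers 10.92 to 11.33 and 11.06 to 11.24. The summed signal of 6 alveolar fibroblast markers was 9.85 to 10.23 in bright PNX-dnFGFR, 10.89 to 11.54 in bright PNX and 11.29 to 11.61 in bright SHAM cells. That of 6 adventitial markers was 12.14 to 12.19 in bright PNX-dnFGFR, 12.48 to 12.62 in bright PNX and 12.76 to 12.81 in bright SHAM cells. That of 6 mesothelial markers was 10.98 to 11.55 in bright PNX-dnFGFR, 10.47 to 11.65 in bright PNX and 10.42 to 10.85 in bright SHAM cells, with the 2 bright PNX arrays the farthest apart. That of 6 endothelial markers was 8.42 to 8.95 in bright PNX-dnFGFR, 8.62 to 8.89 in bright PNX and 9.11 to 9.25 in bright SHAM cells. Between bright PNX-dnFGFR and bright SHAM cells the median difference was -1.33 log2 over the alveolar, -1.08 over the endothelial, -0.50 over the adventitial and 0.92 over the mesothelial markers tested, and 4, 0, 1 and 0 of them passed, in that order. The mesothelial marker Upk3b had 7.42 and 7.88 in bright PNX-dnFGFR, 8.83 and 5.10 in bright PNX and 7.39 and 4.46 in bright SHAM cells, while Msln was below the filter on all 12 arrays. The part of these cell types in the differences of the members was not tested.

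In dim cells 0 members passed between PNX-dnFGFR and SHAM, where 0.0181% of all genes did. With an unadjusted p below 0.05 there were 4 of 28 members and 1054 of 11073 genes. Timp1 had 9.49 and 8.84 in dim PNX-dnFGFR against 7.12 and 6.50 in dim SHAM cells, a difference of 2.35 log2 (± 0.33 SE, adjusted p = 0.14), with arrays that lay apart. Adamts4 gave 1.99 (adjusted p = 0.36), which was 0.72 with low values set to the filter, and Timp3 gave -0.49 (adjusted p = 0.37).

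As the mean over both subsets, 2 members were higher and 3 lower in PNX-dnFGFR than in SHAM cells, where 2% of all genes passed (0.984% higher, 1.01% lower). Timp1 differed by 1.94 log2 (± 0.24 SE, adjusted p = 0.014) and Adamts9 by 1.65 log2 (± 0.35 SE, adjusted p = 0.048). Lower were Mmp11 at -0.69 log2 (± 0.12 SE, adjusted p = 0.037), Timp3 at -0.51 log2 (± 0.10 SE, adjusted p = 0.044) and Adamts10 at -0.50 log2 (± 0.10 SE, adjusted p = 0.044). Timp3 had 11.17 and 11.49 in bright PNX-dnFGFR against 11.87 and 11.85 in bright SHAM cells, and 11.06 and 11.19 in dim PNX-dnFGFR against 11.59 and 11.64 in dim SHAM cells. Its other probe sets gave -0.72 to -0.64. The 2 inhibitors thus ran in opposite directions. The arrays of both lay apart in both gates, for which the share of all genes was not counted. For Adamts10 the dim arrays overlapped, at 10.31 and 10.26 in PNX-dnFGFR and 10.33 and 10.54 in SHAM cells. Timp1 failed to pass without bright PNX-dnFGFR replicate 1, bright SHAM replicate 2 or dim PNX-dnFGFR replicate 1 (adjusted p up to 0.077). The 4 other members passed in 2 of 12 such fits each, those without a bright PNX array, with adjusted p-values of up to 0.165 otherwise. Adamts10 also missed the threshold with replicate number as a block (adjusted p = 0.0505), and Adamts9 with condition and number as a block (adjusted p = 0.0503).

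**Figure D4:**
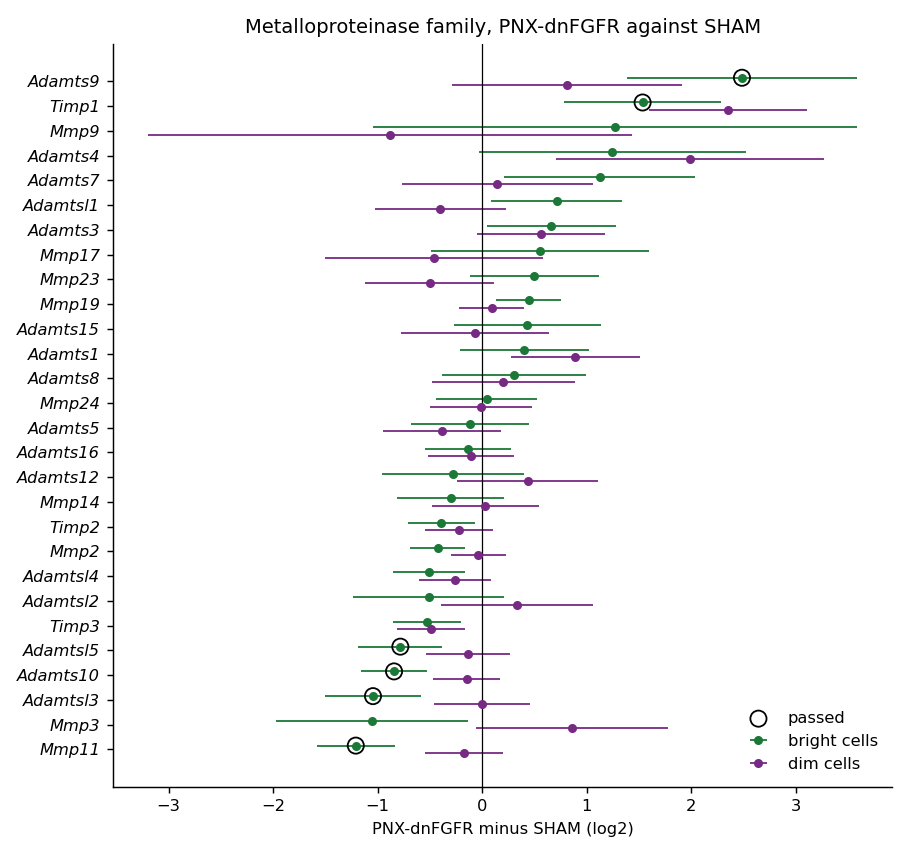
Difference between PNX-dnFGFR and SHAM for the tested members in bright cells (green) and dim cells (purple), in log2 units with 95% confidence intervals and rings around those that passed. The 6 rings are all in bright cells, with Adamts9 at 2.48 and Mmp11 at -1.21, and Timp1 is highest in dim cells at 2.35.

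What the dominant-negative receptor changed among operated animals was asked from PNX-dnFGFR against PNX cells, which share the PNX arrays with the first of these comparisons and the PNX-dnFGFR arrays with the second. In bright cells 0 members passed, where 0.00903% of all genes did. Before adjustment 8 of 28 members and 1390 of 11073 genes had a p below 0.05. Adamts10 was at -0.90 (adjusted p = 0.075), Adamtsl3 at -0.76 (adjusted p = 0.16) and Adamtsl2 at -1.19 (adjusted p = 0.17), none past the threshold. Without bright PNX replicate 1, 5 members passed, Adamts10 among them (adjusted p = 0.024). In dim cells 0 members passed (5 at an unadjusted p below 0.05, beside 863 of 11073 genes), where 0% of all genes did. Mmp11 was at 0.57 (adjusted p = 0.51), Adamts4 at 1.83 (adjusted p = 0.52) and Timp1 at 0.99 (adjusted p = 0.53). As the mean over both subsets 0 passed (8 at an unadjusted p below 0.05, beside 1384 of 11073 genes), where 0% of all genes did. Adamts10 gave -0.48 (adjusted p = 0.17), Adamts4 1.68 (adjusted p = 0.19) and Timp1 0.82 (adjusted p = 0.24).

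Whether a condition acted differently in bright and dim cells was tested as a difference of differences. For PNX-dnFGFR against SHAM 0 members passed, where 0.126% of all genes did (0.0993% higher, 0.0271% lower). Mmp11 had -1.04 (adjusted p = 0.13), Adamtsl3 -1.05 (adjusted p = 0.2) and Adamts10 -0.69 (adjusted p = 0.21). With low values set to the filter, Adamtsl3, whose dim arrays were all below it, passed at -1.04 (adjusted p = 0.025). In the fit of the values as deposited, the members that passed in bright cells are not shown to differ from dim cells in their response. For PNX-dnFGFR against PNX 0 passed (5 at an unadjusted p below 0.05, beside 909 of 11073 genes), where 0% of all genes did. Adamtsl3 was at -1.24 (adjusted p = 0.47), Adamts10 at -0.84 (adjusted p = 0.48) and Mmp11 at -0.86 (adjusted p = 0.48). For PNX against SHAM 0 passed (2 at an unadjusted p below 0.05, beside 495 of 11073 genes), where 0% of all genes did. Adamts1 was at -1.09, Adamts8 at 1.03 and Adamtsl1 at 0.87 log2, each with an adjusted p of 0.998.

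Mmp9, an enzyme stored in the granules of neutrophils, varied widely between replicates. It had 8.0 and 7.89 in bright PNX-dnFGFR, 8.68 and 5.68 in bright PNX and 7.42 and 5.93 in bright SHAM cells, against 7.39 and 7.11 in dim PNX-dnFGFR, 8.24 and 5.49 in dim PNX and 7.78 and 8.48 in dim SHAM cells. The pairs of bright PNX and of dim PNX arrays differed by 3.01 and 2.75, and replicate 2 was the lower in both. S100a8, a calcium-binding protein that neutrophils hold in large amounts, had 6.11 and 5.53 in bright PNX-dnFGFR, 6.48 and 4.11 in bright PNX and 6.90 and 4.95 in bright SHAM cells, against 6.48 and 6.09 in dim PNX-dnFGFR, 6.08 and 4.24 in dim PNX and 7.67 and 8.54 in dim SHAM cells. S100a9, its partner, had 6.90 and 6.66 in bright PNX-dnFGFR, 7.25 and 5.15 in bright PNX and 7.08 and 5.29 in bright SHAM cells, against 7.39 and 6.83 in dim PNX-dnFGFR, 7.10 and 4.30 in dim PNX and 8.39 and 9.26 in dim SHAM cells. The 2 PNX arrays with low Mmp9 were also those with the lowest S100a8 and S100a9 of their gate. The other neutrophil markers were mixed in bright PNX cells. Csf3r, Cxcr2 and Mpo ran with Mmp9, at 5.92, 3.96 and 5.72 on replicate 1 and 5.15, 3.57 and 4.84 on replicate 2. The rest ran against it there. Ltf, Camp and Elane, below the filter on both bright PNX arrays, had 3.81, 3.18 and 2.39 on replicate 1. On bright PNX replicate 2 they were higher, at 4.69, 4.07 and 2.80. In bright SHAM cells Ltf had 5.35 on replicate 1 and 7.92 on replicate 2, where Mmp9 was the lower. In dim cells they ran with Mmp9 in other pairs. Ltf, Camp and Elane had 4.69, 3.90 and 2.95 on dim PNX replicate 1 and 4.67, 3.48 and 2.59 on replicate 2. Ltf had 4.89 and 9.36 in dim SHAM cells, where Mmp9 was the higher on replicate 2. The summed signal of 8 neutrophil markers was 8.53 to 8.74 in bright PNX-dnFGFR, 7.48 to 8.64 in bright PNX and 8.59 to 8.70 in bright SHAM cells. It was 8.33 to 9.30 in dim PNX-dnFGFR, 6.98 to 8.40 in dim PNX and 9.59 to 10.90 in dim SHAM cells, with 0 to 5 of the 8 above the filter on any dim array. The part of neutrophil RNA in the Mmp9 values was not tested.

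**Figure D5:**
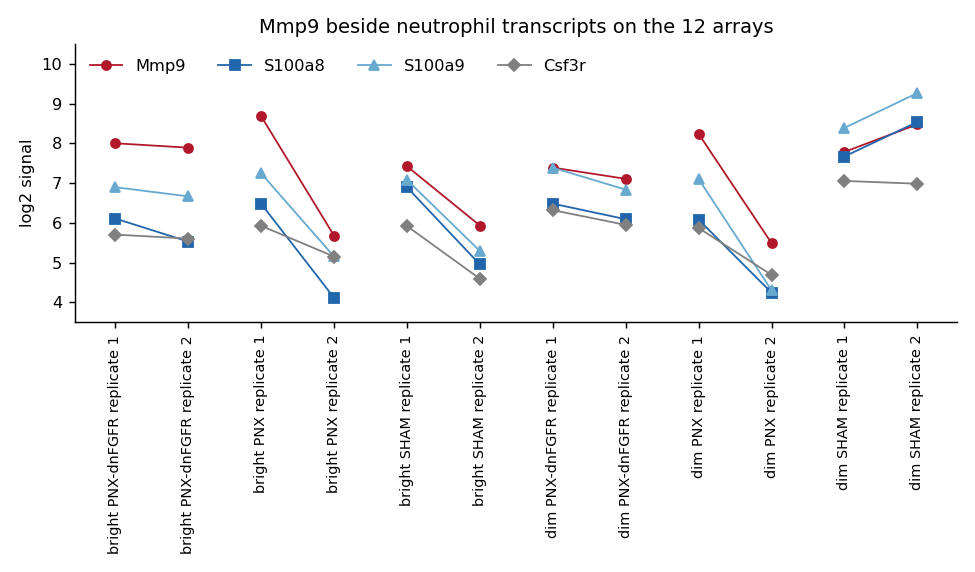
Log2 signal of Mmp9 and of the neutrophil genes S100a8, S100a9 and Csf3r on the 12 arrays. Mmp9 is lowest on replicate 2 of bright PNX and of dim PNX, at 5.68 and 5.49.

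Genes that work beside the family were counted from lists of other proteases, regulators and substrates, by the mean difference between bright and dim cells, where 47.8% of all tested genes passed (28.5% higher, 19.3% lower). The shares that passed were 54.5% of the ADAM genes and 66.7% of the astacin, procollagen-processing and Pappa genes. They were 58.3% of the regulators, 60% of the cathepsin genes with the inhibitor Cst3 and 33.3% of the hyalectan genes, on 3 to 12 genes a list. The ADAM family includes enzymes that shed membrane proteins, though not all its members are active proteases. Of 11 tested ADAM genes 5 were higher and 1 lower (median 0.67 log2). Adam12 led at 4.07, with Adam33 at 2.59, Adam23 at 2.55 and Adam17 at -0.47. Of 6 tested astacin, procollagen-processing and Pappa genes 3 were higher and 1 lower (median 0.72). Bmp1, which removes the carboxy-terminal propeptide of procollagens, was at 2.54, Pappa at 2.25 and Pappa2 at 1.51, and Pcolce2, which enhances Bmp1, was at -0.83. Of 12 tested regulators and activators 6 were higher and 1 lower (median 0.39), with the proteoglycan Spock2 at 3.46, Rarres1 at 2.78, Pcsk6 at 1.58 and Pcsk5 at 0.95, against the convertase Furin at -0.41. With low values set to the filter, Pappa2 was at 0.21 and Rarres1 at 1.30. Of 5 tested genes, the cathepsins and their inhibitor Cst3, 3 were higher and 0 lower (median 0.22), with Ctsk, a collagen-cutting cathepsin, at 1.96. Of 3 tested hyalectan and link protein genes 1 was higher (median 0.06): versican, Vcan, the substrate of several Adamts enzymes, at 3.34.

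Between conditions these lists gave 5 calls in bright PNX-dnFGFR against bright SHAM cells and 1 in the mean over both subsets, of 37 genes tested, where 5.2% and 2% of all genes passed. Rarres1 was higher by 3.58 log2 (± 0.76 SE, adjusted p = 0.034), and 2.98 with low values set to the filter. Its signal was 8.0 and 8.17 in bright PNX-dnFGFR, 6.90 and 3.69 in bright PNX and 4.72 and 4.29 in bright SHAM cells, so that the bright PNX arrays were split. Lower were Pcsk6 at -1.19 (adjusted p = 0.034), a convertase of precursor proteins, Pcolce2 at -0.97 (adjusted p = 0.011), Adam33 at -0.86 (adjusted p = 0.045) and the cathepsin inhibitor Cst3 at -0.66 (adjusted p = 0.035). In the mean over both subsets Pcolce2 was at -0.54 (adjusted p = 0.039). Adam12, at 2.16 in bright cells, did not pass (adjusted p = 0.064).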

How the data were processed

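Gene expression was measured on 12 Affymetrix arrays of sorted lung fibroblasts. Per the submitters' processing notes, the deposited log2 signals were made with RMA, with no version given. They were used as deposited. Array medians were 5.06 to 5.13, and the number of arrays limits the precision. Of 45141 probe sets, 104 controls were left out, 28898 had 1 gene in the array's annotation, 551 several and 15588 none. Only those with 1 gene were used, and symbols were updated by Entrez identifier. The probe set with the highest mean stood for each gene.

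Genes above log2 5.101 on at least 2 arrays (11073) entered limma 3.58.1 (R 4.3.3) with 1 mean per group. There were 16 contrasts, and all 12 arrays were taken as independent, though a bright and a dim array may share animals. The fit was tested on simulated data. The members and lists were chosen with earlier results of these data known. The text names all members. It gives every array for those that passed with groups apart and for all Timp genes, Mmp2 and Mmp14, and where no member passed it gives the 3 smallest unadjusted p-values. Mmp19 met that rule in bright against dim PNX-dnFGFR cells, and Adamts9 in bright against dim SHAM cells. Mmp9, which is outside the rule, and the marker and list genes were added after their values were seen. Alternatives were other filters, normalization, probe set summary, variance model, array sets, replicate blocks and each array left out.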

Additional observations from a re-analysis of the deposited data

How the results depend on the processing

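The 81 differences that passed kept their sign in every setting. With 1 array left out in turn they passed in 806 of 972 fits, and under the other settings in 669 of 700. The 27 differences given where no member passed also kept their sign; they passed in 2 of 324 and 5 of 243 fits. Of all 448 differences of tested members, 9 changed sign with low values set to the filter, none of them past the threshold either way (for Adamts4, PNX-dnFGFR against SHAM in bright minus dim cells, -0.74 and 0.53). Counts of members that passed, with each array left out, were 19 to 22 for the mean of bright against dim cells (21 with all arrays), 11 to 17 in PNX-dnFGFR (17), 10 to 15 in PNX (15) and 11 to 16 in SHAM cells (16). They were 0 to 1 for PNX against SHAM as the mean (1), 0 to 5 and 0 to 1 for PNX-dnFGFR against PNX in bright cells and as the mean (0 each), and 0 to 7 and 0 to 6 for PNX-dnFGFR against SHAM in bright cells and as the mean (6 and 5). For the other contrasts they were 0 to 0. With only the arrays of the groups compared, counts were 9 for bright against dim PNX cells, 0 for PNX against SHAM as the mean (Mmp11, adjusted p = 0.0996) and 3 for PNX-dnFGFR against SHAM as the mean, with fewer arrays to estimate the spread. For PNX-dnFGFR against PNX in bright cells counts were 1 with the stricter filter, 1 with a variance trend and 2 with values below the filter set to it. For PNX-dnFGFR against SHAM in bright cells they were 10 with a variance trend and 10 with low values set to the filter, and as the mean 8 with a variance trend and 2 with no filter. The difference of that effect between the gates gave 1 with low values set to the filter (Adamtsl3, -1.04, adjusted p = 0.025). Timp2 and Timp3 did not pass for bright against dim cells after another quantile normalization (0.15 and 0.19, adjusted p = 0.15 and 0.096). The cause of these changes was not tested.

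The correlation of the deviations of same-numbered arrays was -0.19 to 0.35 over 15 pairs of groups and above 0.1 in only 4, so the number was not taken to pair the samples. It was highest between bright SHAM and the other bright groups (0.35 with bright PNX-dnFGFR, 0.29 with bright PNX). The epithelial gene Scgb1a1 was higher on replicate 2 of all 3 bright groups (6.19 and 11.19 in PNX-dnFGFR, 6.85 and 10.58 in PNX, 5.73 and 11.58 in SHAM cells). With replicate number as a replicate block, 21 members passed between bright and dim cells in the mean over conditions, 1 between PNX and SHAM in the mean over gates, and 6 in bright cells and 5 as the mean for PNX-dnFGFR against SHAM, where 4 of the 5 are shared with the fit without it (Adamts10 is lost). With condition and number together as the replicate block, these were 21, 1, 6 and 4 (Adamts9 is lost).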
